A study of Mus musculus with 10 samples.

Results

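The mitochondrial ribosomal protein genes are the nuclear genes whose mouse symbols begin with Mrpl or Mrps and a number, and their open chromatin sites in T helper 17 (Th17) cells are described here. A site was counted to them when the nearest protein-coding gene body, within 50 kb on GRCm38, was one of these genes. This gave 127 of the 39657 sites in the deposited table. The annotation held 78 such genes, and 68 of them had at least 1 site, namely 43 of 49 genes named Mrpl, for the large subunit, and 25 of 29 named Mrps, for the small subunit. A symbol does not always match the place or role of the protein: for example, the product of Mrps18a belongs to the large subunit. The genes were grouped by symbol only, and the place of each protein was not checked. The 10 genes without a site by this rule were Mrpl18, Mrpl23, Mrpl34, Mrpl37, Mrpl43, Mrpl50, Mrps5, Mrps12, Mrps18b and Mrps25. A site closer to a neighbouring gene is counted to that neighbour, so these genes can still have a site nearby. For example, the site chr7:28742139-28742519 was counted to Sars2, which starts on the opposite strand within 1 kb of the Mrps12 start.

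Mitochondria keep their own ribosome, which translates the handful of proteins encoded by mitochondrial DNA, all of them core parts of the respiratory chain and ATP synthase. Its RNA comes from mitochondrial DNA, whereas its proteins are encoded in the nucleus, made in the cytosol and imported. Activated T cells build up mitochondria and their translation machinery, and loss of a mitochondrial ribosomal protein in humans can cause disease of tissues with a high energy demand.

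ATAC-seq, which marks chromatin open to a transposase, was made from naive CD4+ T cells of spleen and lymph nodes, activated and cultured for 3 days under Th17 conditions. KO cells came from PDHfl/fl CD4 Cre+ mice, in which the CD4 promoter drives Cre in T cells and so removes pyruvate dehydrogenase, the enzyme that makes acetyl-CoA from pyruvate in mitochondria. WT cells came from PDHfl/fl mice, which carry the floxed allele without Cre. There were 2 libraries of KO cells with 10 mM sodium acetate, 3 of untreated KO cells, 2 of WT cells with 10 mM sodium acetate and 3 of untreated WT cells. The sample titles write the allele as PHD-fl/fl, and neither sex nor age is given in the sources used here. Nothing says that the libraries of a group came from separate mice, so the p-values reflect spread among libraries that may be technical replicates only.

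Values are signal as the authors deposited it, namely whole reads per site scaled by a single factor for each library. Reads in all sites ranged from 3500172 to 13356560 per library. In the untreated KO libraries 1 read was worth 0.548, 0.934 and 1.18 signal units, against 1.25, 1.00 and 1.11 in the untreated WT libraries. A factor shared by all sites of a library can move every difference together, so differences are given as deposited and, where stated, after cyclic loess scaling, which sets the bulk of the table level between libraries. Column names put all untreated KO libraries and WT untreated 1 and 2 under the prefix ATAC1, and WT untreated 4 and all libraries with acetate under ATAC2. In bulk material, fewer open cells and less open chromatin per cell cannot be told apart. All 7 genes checked for Th17 and CD4 T cells had sites, while neither CD8 gene did. The Th17 and CD4 sites took 0.132 to 0.152% of all signal in the untreated KO libraries against 0.0834 to 0.105% in the untreated WT libraries, which do not overlap. Of 4 B cell genes only Pax5 had sites, with 0.00315 to 0.00375% in untreated KO against 0.000598 to 0.000935% in untreated WT, also apart. Of 4 myeloid genes Itgam and Spi1 had sites, whose shares overlapped, at 0.0156 to 0.0167% in untreated KO against 0.0148 to 0.0171% in untreated WT. With acetate the Th17 and CD4 shares were 0.142 to 0.162% in KO against 0.0917 to 0.101% in WT. For Pax5 they were 0.00115 to 0.00129% against 0.000857 to 0.000861%, and for the myeloid genes 0.0146 to 0.0161% against 0.0163 to 0.0168%. In each of these the genotypes did not overlap. The part of other cells in the differences was not tested.

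The sites lay mostly at the genes' own ends. Of the 127 sites, 90 overlapped a gene body, 7 lay outside within 1 kb and 30 lay farther away. Within 1 kb of either end of a member gene lay 69 sites (54.3%), in 60 genes, whereas 24.8% of all sites in the table lay at the end of a protein-coding gene. The genes of the set often sit back to back with a neighbour: 28 of the 69 sites were also within 1 kb of another gene's end, and 16 of the 127 sites touched or neighboured another gene equally closely. Most sites, 117, were 201 bp wide.

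RefSeq promoter windows on GRCm38.p6, reaching from 250 bases before to 50 bases after a start, were available for 69 of the genes, with 75 windows. A site overlapped 56 of these 75 windows (74.7%), in 53 genes, compared with 6682 of 21263 windows of all protein-coding genes (31.4%). Another gene started on the opposite strand within 1 kb for 25 of the 69 genes (36.2%), compared with 1681 of 17492 genes overall (9.61%). Examples are Mrpl47 beside Ndufb5, a complex I subunit gene, Mrpl49 beside Fau, which encodes a cytosolic ribosomal protein, and Mrpl40 beside Hira, a histone chaperone gene.

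The windows were searched on both strands for short motifs: those known at promoters of housekeeping and mitochondrial genes, the E-box, and the AP-1 motif, which is common at T cell enhancers. The NRF1 motif, of the nuclear respiratory factor that acts on many genes for mitochondrial proteins, reads GCGC, any base, then TGCGC. It was in 13 of 75 windows (17.3%), against 6.38% of all 21263 windows. The ETS core CCGGAAG, which the GA-binding protein also reads, was in 26 windows (34.7%), against 11.6% of all windows. The YY1 motif AANATGGCG was in 11 (14.7%), against 3.12%. Closer to the overall shares were CCAAT in 30 windows (40.0%, against 38.2%), the SP box GGGCGG in 39 (52.0%, against 46.2%) and the E-box CACGTG in 7 (9.33%, against 7.84%). TATAAA was in 5 (6.67%, against 12.6%) and the AP-1 motif TGANTCA in 3 (4.00%, against 6.99%). A site overlapped 13 of 13 windows with the NRF1 motif, 19 of 26 with ETS, 10 of 11 with YY1, 21 of 30 with CCAAT and 25 of 39 with the SP box, beside 56 of all 75. For the E-box it was 6 of 7, for TATAAA 4 of 5 and for AP-1 0 of 3. These letters are a description of the windows and were not tested as binding sites. Each motif was counted separately, also where matches of different motifs shared bases. Windows of the same gene can overlap, so a match can count more than once. The overlapping windows of Mrpl2 each hold CCAAT, the SP box and the E-box, which adds to those counts. Windows of all genes were counted in the same way.

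The 250 bases before the start are shown for 5 genes whose open promoter sites recur below, from RefSeq on GRCm38.p6, on the gene's strand and 5′ to 3′, with NRF1 and ETS matches on either strand in capitals. Mrpl45 (chr11:97315466-97315715, plus strand) shows 2 NRF1 matches. Mrps26 (chr2:130563507-130563756, plus) and Mrpl58 (chr11:115403502-115403751, plus) each show an ETS match close to the start. Mrpl17 (chr7:105811088-105811337, minus) shows both motifs, and Mrpl39 (chr16:84735245-84735494, minus) shows an NRF1 match. The full windows, which reach 50 bases past the start, held further matches. Counted there, Mrps26 had 2 NRF1 matches, Mrpl45 had 3, and Mrpl58 had 2 ETS matches and 1 YY1 match.
Mrpl45: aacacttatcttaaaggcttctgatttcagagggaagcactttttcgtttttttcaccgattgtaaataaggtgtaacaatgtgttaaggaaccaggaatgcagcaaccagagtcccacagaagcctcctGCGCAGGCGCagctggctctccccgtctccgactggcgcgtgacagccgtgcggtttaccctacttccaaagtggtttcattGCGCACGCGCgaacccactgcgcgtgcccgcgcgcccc
Mrps26: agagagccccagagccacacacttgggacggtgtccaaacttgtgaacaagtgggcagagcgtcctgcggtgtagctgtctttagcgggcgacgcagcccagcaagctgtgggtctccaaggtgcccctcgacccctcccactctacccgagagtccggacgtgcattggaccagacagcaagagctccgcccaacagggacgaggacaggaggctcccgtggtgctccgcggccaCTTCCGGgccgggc
Mrpl58: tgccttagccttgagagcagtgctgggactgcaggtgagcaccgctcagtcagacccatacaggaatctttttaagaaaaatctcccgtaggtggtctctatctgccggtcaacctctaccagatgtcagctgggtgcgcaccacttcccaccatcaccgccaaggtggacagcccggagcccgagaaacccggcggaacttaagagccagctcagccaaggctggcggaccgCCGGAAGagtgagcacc
Mrpl17: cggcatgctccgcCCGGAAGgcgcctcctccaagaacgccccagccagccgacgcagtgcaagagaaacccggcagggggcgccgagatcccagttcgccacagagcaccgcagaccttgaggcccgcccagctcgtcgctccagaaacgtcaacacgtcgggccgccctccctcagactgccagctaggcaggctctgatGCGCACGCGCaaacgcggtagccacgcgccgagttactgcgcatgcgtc
Mrpl39: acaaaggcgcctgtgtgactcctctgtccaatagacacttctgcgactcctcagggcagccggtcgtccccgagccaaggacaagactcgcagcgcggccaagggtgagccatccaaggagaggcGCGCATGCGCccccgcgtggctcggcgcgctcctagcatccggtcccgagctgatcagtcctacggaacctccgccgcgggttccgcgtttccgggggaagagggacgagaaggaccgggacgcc

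Mrpl46 and Mrps11, a large and a small subunit gene, start on opposite strands with only 41 bases between them (chr7:78783090-78783130), and a single site, chr7:78782948-78783148, covered both starts. The stretch between the starts is shown on the plus strand, with none of the NRF1, ETS or YY1 motifs in it.
Mrpl46-Mrps11: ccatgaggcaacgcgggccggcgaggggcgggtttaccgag

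How open the sites were differed widely between genes. The mean signal over the 10 libraries ran from 18.4 to 1142 per site, the median being 236.5, where all 39657 sites had 146. At sites at member gene ends the median was 296, close to the 309.4 of all gene-end sites. For values by gene, 1 site was taken per gene: the one with the highest mean log2 signal at a gene end, or failing that the one with the highest anywhere. By this site Mrpl41, Mrpl17 and Mrps26 were the highest and Mrpl13, Mrps16 and Mrpl3 the lowest, all of them 201 bp wide.

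The promoter site of Mrpl41, a large subunit protein, had a signal of 707, 960 and 841 in the untreated KO libraries and 1297, 1127 and 1392 in the untreated WT libraries. At Mrpl17 the same groups had 608, 748 and 747, against 1115, 865 and 1341. At the promoter of Mrps26, a small subunit protein, untreated KO had 449, 596 and 563 and untreated WT 924, 710 and 935. In all 3 genes every untreated KO library lay below every untreated WT library. At the low end, Mrpl13 had 24.1, 17.7 and 29.6 in untreated KO against 54.9, 37.2 and 64.1 in untreated WT. Mrpl3, whose human counterpart is linked to cardiomyopathy, had 56.5, 53.2 and 57.9 against 145, 75.3 and 142.

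The comparison of untreated KO with untreated WT asks how loss of pyruvate dehydrogenase changes open chromatin at these genes. As deposited, 121 of the 127 sites fell in untreated KO and 6 rose, whereas 3 fell and 6 rose with cyclic loess. All 68 genes had a site that fell as deposited. Sites on mitochondrial DNA took 2.01, 1.86 and 1.18% of the signal in the untreated KO libraries, against 0.306, 0.658 and 0.207% in the untreated WT libraries. The untreated KO libraries were thus apart, and they were also above the 0.201 to 0.463% of the 4 libraries with acetate. The part of this trait in the counts was not tested. Of all sites, 89.6% fell and 9.07% rose under the same test (limma, adjusted p under 0.05). The median log2 difference over the 127 sites was -0.79, beside -0.84 over all sites, so the genes moved with the table. At sites at member gene ends the median was -0.74, beside -0.80 at all gene-end sites. Split by symbol alone, Mrpl genes had 3 sites higher and 82 lower of 85 (median -0.83) and Mrps genes, Mrps18a included, 3 and 40 of 43 (median -0.75), with the site between Mrpl46 and Mrps11 counted in both.

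**Figure D1:**
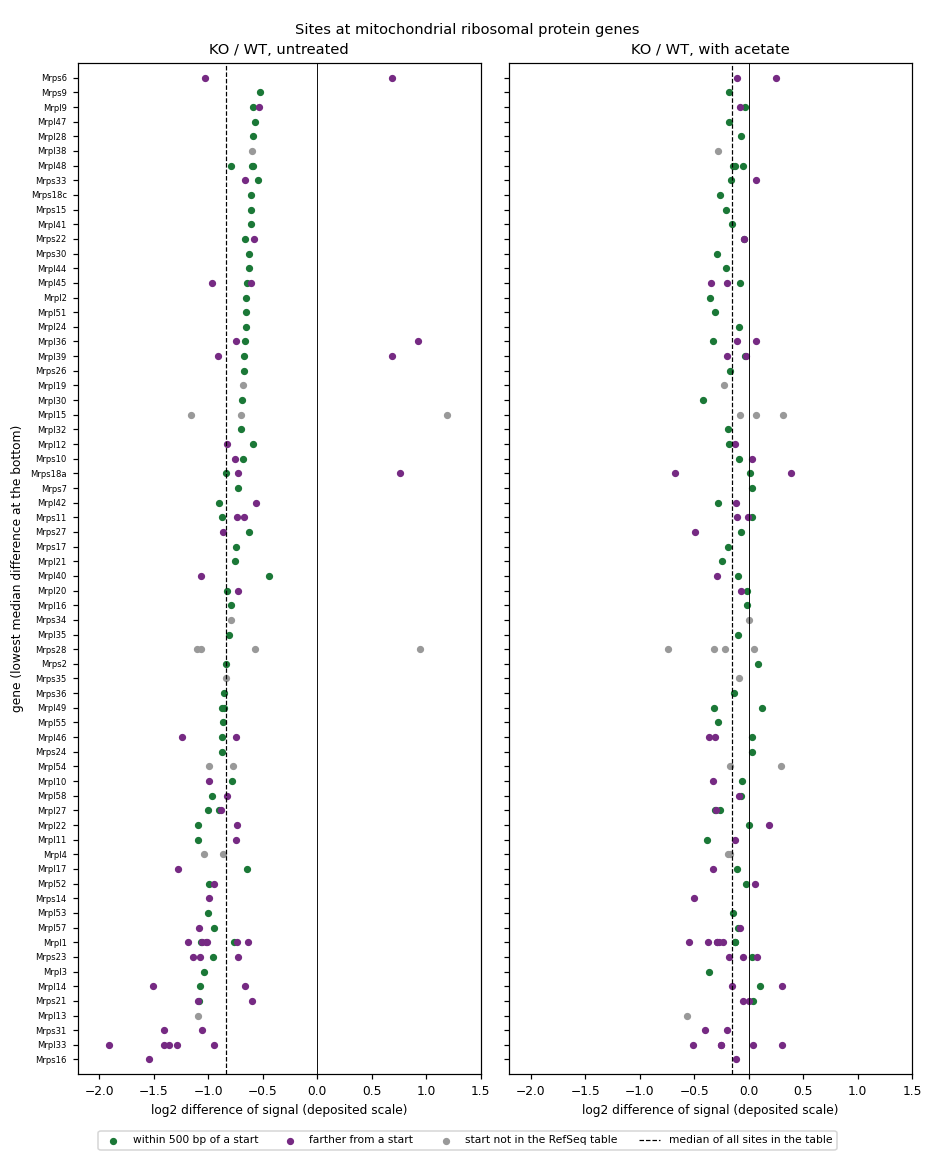
Each point is 1 of the 127 sites, placed by gene (vertical axis, 1 row per gene) and by the log2 difference of signal on the deposited scale (horizontal axis), for KO against WT without acetate (left) and with acetate (right); colour gives the distance class from the gene start, and the site between Mrpl46 and Mrps11 is drawn for both genes. Without acetate nearly all points lie near the dashed median of all sites, -0.84, with 6 points above 0; with acetate they gather near -0.15.

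The direction of this shift depended on the scaling. With cyclic loess 6 sites were higher and 3 lower, where 9.35% of all sites were higher and 2.41% lower, and the median over the 127 sites was 0.02. With median-of-ratios factors 6 were higher and 4 lower (median 0.01), where 9.63% of all sites were higher and 3.34% lower. With total signal the counts were 6 and 6 (median -0.08), where 9.38% and 5.74% of all sites were called. The share of a library's whole signal that fell on the 127 sites, a quantity unaffected by library-wide factors, was 0.395, 0.393 and 0.395% in the untreated KO libraries and 0.389, 0.372 and 0.417% in the untreated WT libraries. It was 0.383 and 0.407% in KO with acetate and 0.405 and 0.375% in WT with acetate. The untreated KO values lay inside the span of the untreated WT values, and with acetate the groups overlapped. The shares are a description, and no test was made of them.

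**Figure D2:**
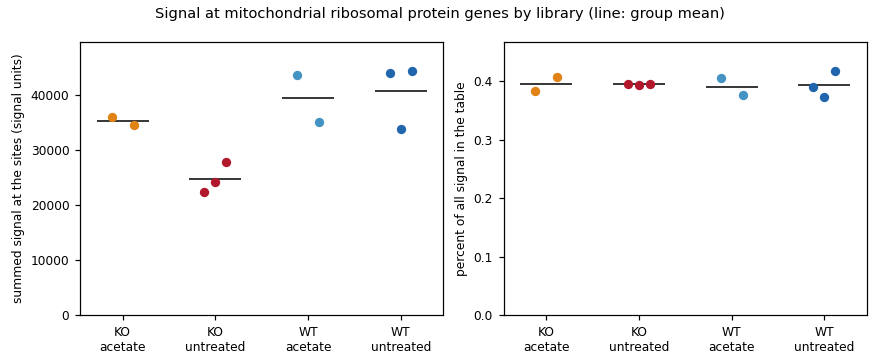
Summed signal over the 127 sites in signal units (left) and the same as a percent of all signal in the table (right), 1 point per library, with a line at the group mean. Summed signal is lowest in untreated KO, while the percent overlaps in all groups, between 0.372 and 0.417.

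Groups did not overlap, with every untreated KO library below every untreated WT library, at 109 of the 127 sites (85.8%), against 80.9% of all sites, and with KO above WT at 6 (4.72%), against 8.61%. None of the 127 differences lay between -0.45, at Mrpl40, and 0.68, at Mrpl39. Of all sites in the table, only 540 (1.36%) had an absolute log2 difference under 0.45. Sites with more signal fell less: across the 127 sites, which share libraries, Spearman's rho between mean signal and the log2 difference was 0.53, beside 0.235 across all sites and 0.480 across all gene-end sites. The sites are numbered as differential, so selection on these samples is assumed. The part of that selection in the gap and in rho was not tested.

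Of the 111 sites whose gene start was known, 58 lay within 500 bp of a start, 22 between 500 bp and 10 kb, and 31 beyond 10 kb. All 58 near a start fell, by -1.09 to -0.45 on the log2 scale with a median of -0.75, and with cyclic loess none of the 58 was called in either direction (limma, adjusted p under 0.05) while their median was 0.04. Among all sites of the table at gene ends, 97.9% fell and 1.52% rose as deposited, so the count at these promoters is close to that of gene ends in general. At 500 bp to 10 kb, 22 of 22 fell and with cyclic loess 2 stayed lower. Beyond 10 kb, 27 fell and 4 rose, with 1 lower and 4 higher under cyclic loess. Of all sites away from gene ends, 86.9% fell and 11.6% rose as deposited, and 2.87% were lower and 11.9% higher under cyclic loess. The other 2 sites that rose belong to genes whose start was not in the RefSeq table used.

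**Figure D3:**
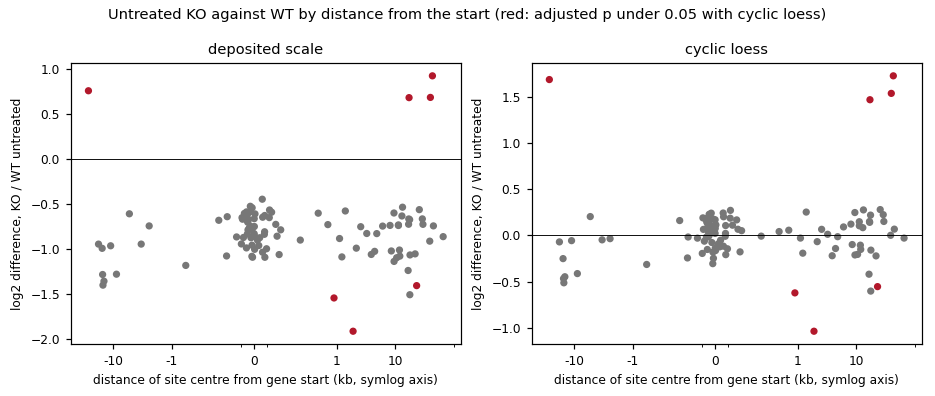
The log2 difference between untreated KO and untreated WT (vertical axis) against the distance of the site's centre from the gene start in kb on a symmetric log axis, for the 111 sites with a known start, as deposited (left) and with cyclic loess (right). Red points pass an adjusted p of 0.05 with cyclic loess: 4 rises, all beyond 10 kb, and 3 falls, none within 500 bp of the start.

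Among the sites chosen for each gene, that of Mrps16, a small subunit gene linked to respiratory chain deficiency in humans, fell most. Its site, chr14:20392496-20392696, lies 894 bp inside the gene and had 28.5, 24.3 and 36.7 in untreated KO against 87.4, 86.4 and 89.6 in untreated WT. The groups were far apart and the log2 difference was -1.55 ± 0.28 (SE, limma adjusted p = 1.32e-06), and -0.62 with cyclic loess (adjusted p = 0.0498). Next came Mrpl11, a protein at the base of the ribosomal stalk, which fell by 1.09 ± 0.24 on the log2 scale, with 67.5, 63.5 and 85.1 in untreated KO against 171, 124 and 171 in untreated WT. The falls were 1.09 at Mrpl13, 1.08 at Mrps21 and Mrpl14, and 1.06 at the Mrps31 site 3.46 kb outside that gene. None of them, Mrpl11 included, was called under cyclic loess.

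The smallest fall was at Mrpl40, whose human counterpart lies in the region lost in DiGeorge syndrome. It had 517, 527 and 572 in untreated KO against 752, 602 and 875 in untreated WT, a log2 difference of -0.45 ± 0.19 (limma adjusted p = 0.0181). The groups did not overlap. Mrps9, Mrps33, Mrpl47 and the end site of Mrps28 followed at -0.53, -0.54, -0.57 and -0.57. Relative to the table these were the upper end of the chosen sites, and with cyclic loess they stood at 0.24, 0.18, 0.27 and 0.14 without a call.

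Genes picked for their roles gave values between these. Mrpl12, the stalk protein also reported to bind mitochondrial RNA polymerase, had 458, 534 and 589 in untreated KO against 995, 643 and 765 in untreated WT (log2 -0.59 ± 0.19). Mrpl45, which lies near the exit tunnel and tethers the ribosome to the inner membrane, had 125, 130 and 162 against 268, 147 and 259 (-0.65 ± 0.22). Mrpl58, a peptidyl-tRNA hydrolase built into the large subunit, had 132, 135 and 162 against 338, 213 and 301 (-0.96 ± 0.22). All 3 passed the test as deposited, and with cyclic loess they stood at 0.11, 0.20 and -0.12 without a call.

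Mrpl44, an RNase III-like protein whose loss causes cardiomyopathy in humans, fell by 0.63, and Mrpl19 by 0.68. Of the paralogs of a single bacterial small subunit protein, Mrps18a fell by 0.84 and Mrps18c by 0.61 at their starts, while Mrps18b had no site. Mrps22 and Mrps34, both linked to mitochondrial disease in humans, fell by 0.66 and 0.79, and Mrps7, Mrps15 and Mrps35 by 0.73, 0.61 and 0.84. Each of these 9 passed the test as deposited, and with cyclic loess none was called and all but Mrps18a and Mrps35 lay above 0. The shared start of Mrpl46 and Mrps11 had 184, 165 and 213 in untreated KO against 388, 273 and 380 in untreated WT, a fall of 0.88 ± 0.21 as deposited and -0.05 with cyclic loess. Mrpl1, the gene with the most sites, had 8 from its start to 13.0 kb inside, and all 8 fell as deposited (-1.18 to -0.63), with none called under cyclic loess.

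Of the falls, 3 went beyond the table and are named because they stayed called with cyclic loess. They were 2.36% of the 127 sites, close to the 2.41% of all sites called lower with that scaling. Mrps16 is given above. At Mrpl33, a large subunit protein, the site chr5:31615748-31615948, 1.90 kb inside the gene, had 35.6, 36.4 and 59.1 in untreated KO and 202, 177 and 122 in untreated WT. The lowest WT library lay above the highest KO library, and the fold was 0.265 (log2 -1.92 ± 0.23, limma adjusted p = 3.14e-11; -1.04 with cyclic loess, adjusted p = 0.000649). This was the largest fall of the 127 sites. The other 4 sites nearest to Mrpl33, all over 10 kb before the start, fell by 0.95 to 1.40 and were not called with cyclic loess. At Mrps31, a small subunit protein, the site chr8:22434478-22434678, 4.81 kb outside the gene, had 82.3, 68.2 and 87.5 in untreated KO against 232, 196 and 207 in untreated WT (log2 -1.41 ± 0.22; -0.55 with cyclic loess, adjusted p = 0.0129).

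The 6 rises in untreated KO were single sites away from the promoters, and each kept its call with cyclic loess, median-of-ratios factors and total signal. Rises lay away from gene ends in the whole table too: 11.6% of all sites away from gene ends rose, against 1.52% at gene ends. Of the 58 member sites away from their genes' ends, 5 rose (8.62%). At Mrpl36, a small protein of the large subunit, the site chr13:73374189-73374389 lies 42.0 kb outside the gene. It had 468, 495 and 532 in untreated KO against 240, 348 and 214 in untreated WT, 1.90-fold (log2 0.93 ± 0.21, limma adjusted p = 6.44e-05). No libraries overlapped. The Mrpl36 promoter site itself had 156, 147 and 209 against 277, 206 and 336, a fall of 0.66.

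Within the body of Mrps28, a small subunit gene, the site chr3:8919905-8920105 had 130, 209 and 192 in untreated KO and 71.2, 100 and 101 in untreated WT (log2 0.94 ± 0.23). The other 3 sites of the gene fell, by 0.57 to 1.11. In Mrps6, also of the small subunit, the site chr16:92098198-92098398, 40.0 kb past the start inside the gene, had 239, 274 and 264 in untreated KO against 179, 174 and 133 in untreated WT (log2 0.69 ± 0.22). The other Mrps6 site, 4.44 kb past the start, fell by 1.03.

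Mrpl39 held the sole rise at a gene end. The site chr16:84717909-84718109 lies 0.172 kb beyond the gene's far end, 17.2 kb from its start, and had 347, 451 and 378 in untreated KO against 197, 257 and 281 in untreated WT (log2 0.68 ± 0.21, limma adjusted p = 0.00164). The promoter site, within the sequence shown above, had 312, 375 and 387 against 608, 459 and 653, a fall of 0.67. Of the 3 sites of this gene, 2 thus fell and 1 rose as deposited. With cyclic loess the far site was at 1.47 and called, and the promoter site was at 0.06 and not called.

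The remaining rises were at low signal and far away. A site 26.7 kb from Mrps18a had 110, 95.3 and 130 in untreated KO against 74.9, 75.3 and 48.6 in untreated WT (log2 0.76 ± 0.28). A site 48.4 kb from Mrpl15 had 23.0, 36.4 and 24.8 against 11.2, 11.1 and 12.2 (log2 1.19 ± 0.42, limma adjusted p = 0.00553). The groups did not overlap at either site. The Mrpl15 call was lost without KO untreated 2 (adjusted p = 0.0519) and the Mrps18a call without WT untreated 4 (adjusted p = 0.0510, limma). No value here ties a site so far out to the gene it is nearest to.

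**Figure D4:**
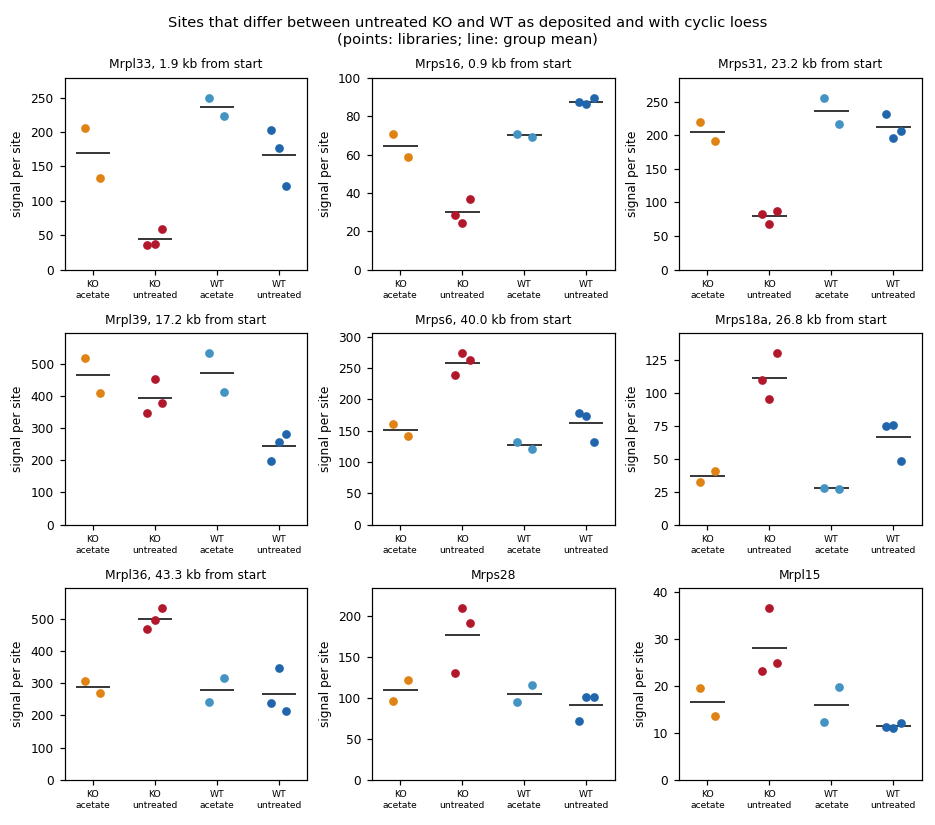
Signal in each library (points) and group mean (line) at the 9 sites called in untreated KO against WT both as deposited and with cyclic loess, with groups from left to right KO acetate, KO untreated, WT acetate and WT untreated. The top row shows the falls at Mrpl33, Mrps16 and Mrps31, where untreated KO lies apart from the other groups, and the other panels show the 6 rises.

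Restricting the comparison to the prefix ATAC1 (3 KO, 2 WT) gave 6 higher sites and 115 lower ones, and the median was -0.72. Shares over all sites are not given for this fit or for the later fits on fewer libraries. Their counts therefore do not show whether the members departed from the table. Leaving out a library left 5 or 6 sites higher and 109 to 121 lower.

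Other genes of mitochondrial translation were counted in the same way in untreated KO, beside 9.07% of all sites higher and 89.6% lower. The other 6 proteins of the mitochondrial ribosome looked at, among them Dap3 and Ptcd3, all had sites, and 8 of 8 fell (median -0.79). Genes for translation factors such as Tufm and Gfm1 had 18 of 18 sites lower (median -0.74; 12 of 16 genes with a site). Mitochondrial aminoacyl-tRNA synthetases, which charge the tRNAs, had 9 sites higher and 45 lower of 56, or 16.1% and 80.4% (median -0.75; 19 of 20 genes). Fars2, the phenylalanyl enzyme, alone held many of the 56 sites and several of the 9 rises, its own rises all away from gene ends. The largest rise was among them, with a mean of 50.1 in untreated KO against 15.8 in untreated WT (log2 1.62 ± 0.39). At gene ends 2 of 26 synthetase sites were higher and 23 lower (7.69% and 88.5%), where 1.52% and 97.9% of all gene-end sites were. Assembly and rRNA modification genes had 1 higher and 44 lower of 45 (median -0.93; 19 of 27 genes), the rise being at Nsun4, an rRNA methyltransferase (0.88 ± 0.24). Genes for replication and transcription of mitochondrial DNA had 1 higher and 24 lower of 25 (median -0.77; 12 of 14 genes).

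With cyclic loess these 5 groups had 0, 0, 9, 1 and 1 sites higher and 0, 0, 1, 2 and 0 lower, in the same order. Cytosolic ribosomal protein genes, by comparison, had 1 site higher and 136 lower of 137 (median -0.79), and nuclear genes of the respiratory chain 1 and 123 of 124 (median -0.79). At gene ends the medians were -0.74 for the mitochondrial ribosomal proteins, -0.76 for the cytosolic ones and -0.74 for the respiratory chain. These medians stand side by side, and no test of their difference was made.

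With acetate given to both genotypes, the comparison asks whether KO and WT still differ at these genes. No site of the 127 was called higher or lower by limma, where 0.0227% of all sites were higher and 0% lower, and 2 of the 127 had an unadjusted p under 0.05, beside 914 of all 39657. With cyclic loess, median-of-ratios factors and total signal the counts were also 0 called, with 0 at an unadjusted p under 0.05. The median log2 difference was -0.13, beside -0.15 over all sites, and the values ran from -0.74 to 0.39. KO with acetate and WT with acetate were apart, KO below, at 28 sites (22.05%, against 30.3% of all sites), and KO above at 6 (4.72%, against 4.63%).

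Among the sites chosen for each gene, the lowest values with acetate were at Mrpl13, whose start was not in the RefSeq table, with 36.7 and 31.7 in KO against 61.5 and 42.1 in WT (log2 -0.57 ± 0.39), and at Mrpl30, with 267 and 238 against 437 and 261 (-0.42 ± 0.26). Mrps14, whose site lies 15.5 kb away, had 489 and 466 against 677 and 673 (-0.50 ± 0.25). At the upper end, the Mrps6 site stood at 0.25, Mrpl22 at 0.19 ± 0.28, Mrpl49 at 0.13 ± 0.26 and Mrpl14 at 0.10 ± 0.27. At the 6 sites that rose in untreated KO the differences with acetate ran from -0.02 at Mrpl39 to 0.39 at Mrps18a. With 2 libraries on each side these intervals are wide, and a missed threshold does not show that the genotypes were alike.

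Acetate against no treatment in KO cells asks what acetate does where the enzyme is missing. As deposited 68 of the 127 sites rose and 4 fell, where 54.6% of all sites rose and 5.94% fell, with a median of 0.56 beside 0.61. Every KO library with acetate lay above every untreated KO library at 97 sites (76.4%, against 69.8% of all sites) and below at 5 (3.94%, against 8.15%). All libraries with acetate carry the prefix ATAC2 and all untreated KO libraries ATAC1, so acetate and prefix cannot be told apart here. With cyclic loess 6 sites were higher and 10 lower, where 11.5% of all sites were higher and 16.7% lower, and the median was -0.04. Without KO acetate 1 the deposited counts were 29 higher and 3 lower, and without KO untreated 1 there were 41 higher.

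Mrps21, a small subunit protein, rose most at a promoter, with 500 and 525 in KO with acetate against 179, 233 and 233 in untreated KO (log2 1.26 ± 0.23, limma adjusted p = 2.18e-06). With cyclic loess it was at 0.69 and still called (adjusted p = 0.00481). It was the sole site within 500 bp of a start that was called in this comparison under cyclic loess. Mrps16 rose as deposited by 1.11 ± 0.31, Mrpl14 by 1.01 ± 0.24 and Mrpl53 by 0.94 ± 0.24, with no call under cyclic loess. Among the sites chosen for each gene, the smallest values included 0.15 ± 0.21 at Mrpl12, 0.20 ± 0.23 at Mrpl2 and 0.22 ± 0.23 at Mrps9, none of them past the threshold.

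Of the 3 sites that fell beyond the table in untreated KO, those at Mrpl33 and Mrps31 rose with acetate under both scalings. The Mrpl33 site inside the gene had 206 and 133 in KO with acetate against 35.6, 36.4 and 59.1 in untreated KO (log2 1.94 ± 0.26; 1.24 with cyclic loess). The Mrps31 site had 219 and 192 against 82.3, 68.2 and 87.5 (1.37 ± 0.24; 0.69 with cyclic loess). These comparisons share the untreated KO libraries with those above, so the values are given side by side only.

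The 4 sites that fell with acetate in KO were among the 6 that had risen without it. Both comparisons use the untreated KO libraries, and the 6 sites were picked for being high there, which favours a fall here. The overlap is therefore no separate evidence. Mrpl36 had 308 and 268 in KO with acetate against 468, 495 and 532 in untreated KO (log2 -0.79 ± 0.23). Mrps6 had 161 and 142 against 239, 274 and 264 (-0.77 ± 0.24), and Mrps28 had 96.3 and 122 against 130, 209 and 192 (-0.67 ± 0.26). The distant Mrps18a site had 32.4 and 40.7 against 110, 95.3 and 130 (-1.58 ± 0.31, limma adjusted p = 8.39e-06). All 4 stayed lower with cyclic loess. As deposited, the calls at Mrpl36 and Mrps6 were lost without KO acetate 3 (limma adjusted p = 0.0536 and 0.0650). That at Mrps28 was lost without KO untreated 2 or 3 or KO acetate 1 (adjusted p = 0.0604 to 0.225, limma). The Mrpl39 site, by contrast, had 517 and 410 against 347, 451 and 378, a difference of 0.24 ± 0.23 that did not pass.

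In WT cells acetate changed few of these sites. Of the 127, 1 rose and 2 fell, where 2.91% of all sites rose and 3.02% fell, and 11 had an unadjusted p under 0.05, beside 7172 of all 39657. The median was -0.06, beside -0.03. The WT groups did not overlap, acetate above, at 13 sites (10.2%, against 16.1% of all sites), and acetate below at 19 (15.0%, against 15.3%). The rise was at the far end of Mrpl39, with 532 and 411 in WT with acetate against 197, 257 and 281 in untreated WT (log2 0.94 ± 0.23, limma adjusted p = 0.00416). The falls, named after their values were seen, were inside Mrpl15 (chr1:4775589-4775789), with 27.7 and 33.7 against 117, 97.5 and 66.3 (-1.55 ± 0.33), and at the distant Mrps18a site, with 27.7 and 27.4 against 74.9, 75.3 and 48.6 (-1.21 ± 0.31). With cyclic loess the counts were again 1 higher and 2 lower, where 4.43% and 4.07% of all sites were called. In the ATAC2 libraries alone, with 2 libraries against 1, 3 sites were higher and 0 lower. The spread in that model comes only from the libraries with acetate, and the lone untreated WT library is assumed to vary like them. The Mrpl39 call had an adjusted p of 0.101 there and of 0.0597 in a model of the WT libraries alone. Without WT acetate 1, no site was called in either direction, and without WT untreated 1, 0 were higher and 1 lower.

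With acetate in WT, the lowest of the sites chosen for each gene were Mrpl22 at -0.41 ± 0.25, Mrpl49 and Mrps16 at -0.32, and Mrps6 at -0.34, the last inside the gene. The highest included Mrps14 at 0.20 ± 0.22, Mrpl55 at 0.17 ± 0.25, Mrps21 at 0.13 ± 0.23 and Mrps35 at 0.09 ± 0.23. None of these passed the test.

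Whether the genotype difference itself changed with acetate was tested by the interaction, in which a positive value means that KO stood higher against WT with acetate than without. As deposited 25 of the 127 sites were called above 0 and 1 below, where 19.5% and 3.61% of all sites were called. With cyclic loess 0 were above and 5 below, where 0.139% and 7.36% of all sites were called. The 5 were the rises of untreated KO at Mrpl36, Mrpl39, Mrps6, Mrps28 and the distant Mrps18a site, with values from -1.62 to -1.12. The interaction contains the untreated difference by which these sites were picked, which favours values below 0, so this is no separate evidence either. Counts as deposited rested on single libraries: without KO acetate 1 no site was called, and without WT untreated 2 there were 65 above and 3 below. The prefix cannot be told apart from this comparison either.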

How the data were processed

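ATAC-seq signal of 10 libraries was taken from the deposited table of 39657 sites. Per the file's values, each deposited signal value is a whole number of reads (within 0.001 reads) scaled by a single factor for each library, made in a way not given in the sources used here. Per the submitters' processing notes, the tools included BWA 0.7.16a, Picard 2.10.9, Genrich, DiffBind 3.6.1 and DESeq2, on GRCm38. The sites are numbered as differential, so selection on these very samples is assumed.

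Sites were given the nearest RefSeq protein-coding gene body. With a pseudocount of 1, log2 signal entered limma 3.58.1 (R 4.3.3, trended and robust) as 1 model of 4 group means fitted to all sites, with Benjamini-Hochberg adjustment over all of them and calls under 0.05. The plan named limma as the main test for normalized values, as deposited here, and a count test as the main test for raw counts. Fold changes are on the log2(value + 1) scale and understate changes of low sites. Values with ± are SE of log2 differences. The code was tested on simulated data. Python 3.11.15 served for the other tables.

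Named sites came from 1 site per gene: the 6 lowest and 6 highest of untreated KO against WT, the 4 lowest and 4 highest of each other comparison, all sites called against the majority, genes chosen for their role, and the 3 brightest and 3 dimmest. The members, lists and rules were chosen with earlier results of these data known. No title lists the numbers of WT untreated 4 and KO acetate 3, which were placed by group.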

Additional observations from a re-analysis of the deposited data

Results flagged for a closer look

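Each of 5 chosen sites was picked out because the genotype difference with acetate differed from that without it in the interaction test (limma, as deposited). The distant Mrpl36 site stood at -0.86 (adjusted p = 0.0468), and at -1.49 with cyclic loess (adjusted p = 0.00898). The other 4 lay above 0 as deposited: Mrpl49 at 1.00, Mrps21 at 1.13, Mrpl14 at 1.18 and Mrps16 at 1.43, with adjusted p from 0.0176 to 0.0316. With cyclic loess these 4 were at 0.36, 0.52, 0.51 and 0.63, none of them called. The Mrpl36 call as deposited was lost without each of 8 libraries in turn, with adjusted p from 0.0599 to 0.208. Acetate and the column prefix cannot be told apart in this test. Groups of 3 or fewer libraries were too small to look for single outlying libraries.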

How the results depend on the processing

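For untreated KO against WT, cyclic loess left 3 sites lower (median 0.0206), median-of-ratios factors 4 (median 0.0107) and total signal 6 (median -0.0776), with 6 higher under each. Named sites lower as deposited that then lay above 0 were, with cyclic loess, Mrps28 (0.14), Mrpl47 (0.27), Mrps33 (0.18), Mrps9 (0.24), Mrpl40 (0.24), Mrpl12 (0.11), Mrpl19 (0.13), Mrpl44 (0.11), Mrpl45 (0.20), Mrps15 (0.11), Mrps18c (0.18), Mrps22 (0.0864), Mrps34 (0.0215), Mrps7 (0.17) and Mrps26 (0.0008). With median-of-ratios factors they were Mrps28 (0.24), Mrpl47 (0.23), Mrps33 (0.26), Mrps9 (0.28), Mrpl40 (0.36), Mrpl12 (0.22), Mrpl19 (0.12), Mrpl41 (0.19), Mrpl44 (0.17), Mrpl45 (0.15), Mrps15 (0.19), Mrps18c (0.20), Mrps22 (0.14), Mrps34 (0.0107), Mrps7 (0.0687), Mrps26 (0.13) and Mrpl17 (0.16). With total signal they were Mrps28 (0.15), Mrpl47 (0.15), Mrps33 (0.17), Mrps9 (0.19), Mrpl40 (0.27), Mrpl12 (0.13), Mrpl19 (0.0331), Mrpl41 (0.10), Mrpl44 (0.0855), Mrpl45 (0.0637), Mrps15 (0.10), Mrps18c (0.11), Mrps22 (0.05), Mrps26 (0.0398) and Mrpl17 (0.0728). For acetate in KO, sites higher and lower were 6 and 10 with cyclic loess (median -0.0440), 10 and 8 with median-of-ratios factors (median -0.0579) and 11 and 5 with total signal (median 0.0442). Mrpl12 then stood at -0.46 and Mrps9 at -0.39 with median-of-ratios factors, both called. For the interaction the counts were 0 and 5, 0 and 4, and 0 and 4 (medians -0.0256, -0.0062 and 0.0912). A change of factor per library, or of the loess curve, is all that these settings alter.

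Counting only sites within 1 kb of a gene left 3 rises in untreated KO, 2 falls with acetate in KO, 1 fall with acetate in WT and 0 interaction calls below 0, and the set's share of signal became 0.328 and 0.352% (KO acetate 1 and 3), 0.338, 0.339 and 0.339% (KO untreated), 0.352 and 0.316% (WT acetate) and 0.332, 0.312 and 0.370% (WT untreated), having fewer sites. For acetate in WT a model of the WT libraries alone gave 0 higher and 1 lower, and ATAC2 libraries alone 3 and 0. The cause of both WT shifts was not tested. Leaving out each library in turn gave 5 to 6 higher and 109 to 121 lower for untreated KO against WT (median -0.94 to -0.72), 0 and 0 with acetate (-0.26 to 0.01), 29 to 77 and 2 to 4 for acetate in KO (0.50 to 0.69), 0 to 2 and 0 to 2 for acetate in WT (-0.24 to 0.09), and 0 to 65 and 0 to 3 for the interaction (0.51 to 0.79). Deviations of same-numbered libraries from their group means had r from -0.12 to 0.33 over 9 pairs of libraries. With groups of 3 or fewer libraries, this cannot decide whether the numbers pair libraries. The replicate block over 8 libraries gave 5 higher and 118 lower untreated, 54 and 2 for acetate in KO, 2 and 3 for acetate in WT and 38 and 1 for the interaction. Without the block the same 8 libraries, a fit added after seeing the data, gave 5 and 116, 53 and 4, 2 and 2, and 21 and 1. Shares over all sites are not given for the block fit or the fits on fewer libraries, so these counts do not show whether the members followed the table. A pseudocount of 5, a mean signal of at least 50 and leaving out shared sites kept all counts within 1.5 times. The 2 planned edgeR fits on reads recovered from the values were not run. The shallowest library, WT acetate 1, had a median of 57 reads per site, and without it KO against WT with acetate still had 0 calls.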
